A study of Ambystoma mexicanum with 12 samples.

Results

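TNC, FN1 and THBS2 encode tenascin C, fibronectin and thrombospondin 2, extracellular glycoproteins of the provisional matrix of healing tissue. They were followed through 12 RNA sequencing libraries of axolotl limbs as the genes AMEX60DD050822, AMEX60DD055420 and AMEX60DD034565, chosen by these identifiers as 3 of the 99088 genes counted. The study had already reported all 3 as higher in blastemas, from these libraries and from published ones. Their direction in the blastemas is thus no independent evidence here. The groups were 5 blastemas taken 10 days after amputation from juveniles of 8 months, 2 limbs of aged animals of 8 years, and 5 limbs of the same juveniles, taken at amputation, which served as the control tissue. Blastemas and juvenile limbs carry the replicate numbers 2, 3, 5, 6 and 8, and the aged limbs the numbers 1 and 2. All animals came from a captive colony founded with wild axolotls of the Xochimilco area. The aged animals formed no blastema, so they are represented by limb tissue alone, and which limb was sampled differs between the sources (the posterior leg or inferior limbs in the labels, inferior limbs in the study's methods and the right forelimb in its results).

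In amphibian limbs the matrix around the stump is rebuilt while the blastema, a mound of proliferating progenitor cells under a wound epidermis, forms. Fibronectin is an adhesive protein that binds integrins, collagen and fibrin. Tenascin C is a hexameric protein that modulates the adhesion of cells to fibronectin and is typical of embryonic, wounded and regenerating tissue. Thrombospondin 2 is a matricellular protein that binds the receptors CD36 and CD47 and is known in mice for its part in collagen fibril assembly and in limiting the growth of vessels.

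The libraries held 13392223 to 20663627 counts on genes per blastema, 17666680 and 16836023 in aged limb replicates 1 and 2, and 12975883 to 18575093 per juvenile limb. The lowest count of TNC, FN1 or THBS2 in any library was 376, where counting alone gives an error of 5.16%, so the spread described here is mostly spread between libraries. Levels are CPM, the counts of a gene per 1000000 counts of its library, after scaling with edgeR's TMM factors. Gene lengths were not used, so levels are compared between libraries and not between genes. The blastemas stood apart from all limbs in the marker lists of skeletal muscle, keratinocytes, endothelium and glia, and blastema connective tissue. In each of these an aged limb lay within the juvenile range. Other lists overlapped between blastemas and juvenile limbs. The immune cell genes summed to 271 to 528 CPM in blastemas and 256 to 591 CPM in juvenile limbs, and the proliferation genes overlapped as well. The summed level of 41 skeletal muscle genes was 180 to 268 CPM in blastemas, 3547 and 26295 CPM in the aged limbs and 12654 to 56415 CPM in the juvenile limbs, and MYH2.4, MYH8, NEB and SLN had no count in any blastema. For 13 keratinocyte genes the sums were 2454 to 5443 CPM in the blastemas, 11900 to 11963 CPM in the aged limbs and 7745 to 19323 CPM in the juvenile limbs. The 11 endothelium and glia genes summed to 45.9 to 248 CPM in the blastemas and 348 to 600 CPM in the juvenile limbs. Their sums in aged limb replicates 1 and 2 were 414 and 288 CPM. The 7 genes of blastema connective tissue, among them MSX2, TWIST1 and KAZALD1.2, summed to 73.5 to 791 CPM in the blastemas. They summed to 11.4 to 40.4 CPM in the aged limbs and 8.56 to 30.9 CPM in the juvenile limbs. Every blastema thus stood above every limb. All 41 muscle, 13 keratinocyte and 7 connective tissue genes had been listed by the study as changed, as had 10 of the 11 endothelium and glia genes. Their separation is therefore no independent evidence. In bulk tissue, fewer cells of a type and less RNA per cell cannot be told apart.

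TNC was far higher in blastemas than in either kind of limb. It stood at 1611, 1812, 895, 2217 and 692 CPM in blastema replicates 2, 3, 5, 6 and 8, against 111, 111, 66.8, 82.1 and 63.0 CPM in the juvenile limbs of the same numbers. The lowest blastema was thus several times above the highest juvenile limb. Blastemas averaged 1445 ± 638 CPM and juvenile limbs 86.8 ± 23.2 CPM (SD, n = 5 each). By edgeR's quasi-likelihood test on the 10 libraries, with Benjamini-Hochberg adjustment over all genes, TNC rose, with a log2 difference of 4.06 and a standard error of 0.38 (adjusted p = 5.17e-05). All 3 genes passed the filter on low counts in this comparison and TNC and FN1 were called, that is above 1 in absolute log2 fold change with an adjusted p below 0.05. Of the 19961 genes tested, 7.45% were called in either direction, 371 of them higher, which is 1.86%, and 1117 lower, which is 5.6%. When libraries were scaled to plain totals without the muscle genes, and so without TMM factors, 179 genes were higher and 2313 lower.

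FN1 was also higher in every blastema, but with a wide spread. Its level was 1177, 1265, 299, 1746 and 361 CPM in blastema replicates 2, 3, 5, 6 and 8, against 188, 125, 187, 125 and 132 CPM in the juvenile limbs of the same numbers. The groups did not overlap, which held with the blastemas higher for 3.24% of all genes tested, yet blastema replicates 5 and 8 came close to the juvenile limbs. Blastemas averaged 970 ± 623 CPM and juvenile limbs 151 ± 33.2 CPM (SD, n = 5 each), a log2 difference in the fit of 2.68 (standard error 0.47, edgeR's adjusted p = 0.00384).

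THBS2 was not called in this comparison by edgeR, although the study, which used DESeq2, reported it as higher in blastemas. It reached 308, 120, 38.2, 110 and 44.2 CPM in blastema replicates 2, 3, 5, 6 and 8, against 45.4, 41.2, 52.6, 36.4 and 37.3 CPM in the juvenile limbs of the same numbers. Blastema replicates 2, 3 and 6 lay above all juvenile limbs, whereas replicates 5 and 8 lay within their range. Blastemas averaged 124 ± 110 CPM and juvenile limbs 42.6 ± 6.63 CPM (SD, n = 5 each). On the log2 scale the difference was 1.55 (standard error 0.49, edgeR's adjusted p = 0.0754). Whether it was called hung on single libraries and on the tool. Leaving out blastema replicate 5 gave 1.78 (adjusted p = 0.0325), leaving out replicate 8 gave 1.76 (adjusted p = 0.0362), and leaving out replicate 2 gave 0.91. DESeq2 on the same libraries gave 1.55 with an adjusted p of 0.0145, and adjusted p values over all alternatives ranged between 5.61e-06 and 0.175.

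**Figure D1:**
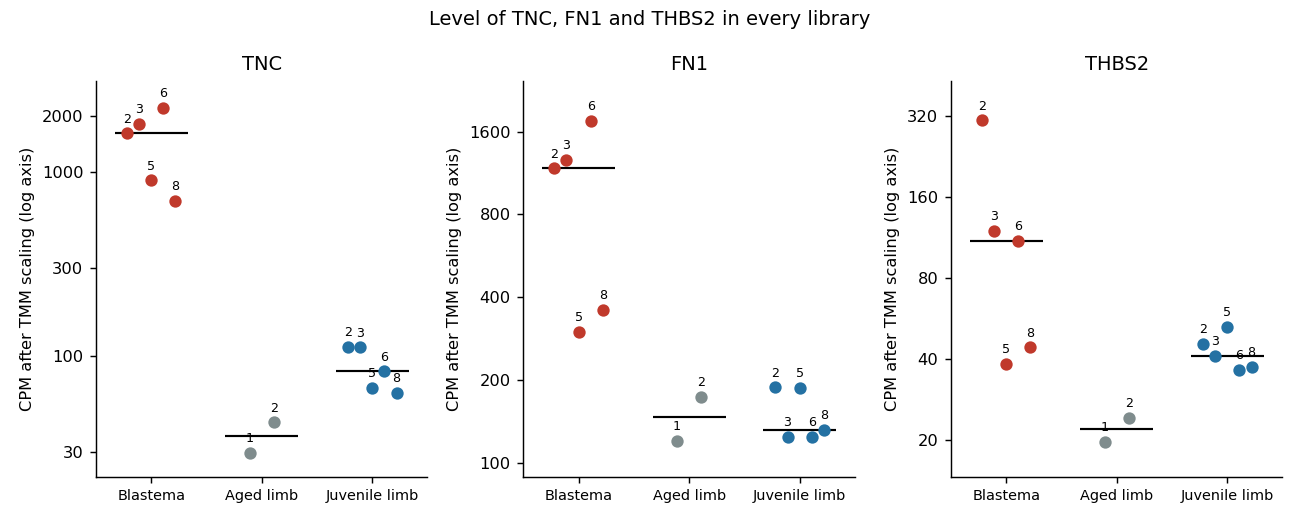
Level of TNC, FN1 and THBS2 in CPM after TMM scaling (log axis, different in each panel) in 5 blastemas, 2 aged limbs and 5 juvenile limbs. Each point is a library with its replicate number and each line the median of the group. TNC and FN1 are higher in all blastemas than in any limb, while THBS2 overlaps the juvenile limbs through blastema replicates 5 and 8.

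Scaling to plain library totals without the muscle genes also left out the TMM factors. It moved the median log2 fold change of all genes to -0.43, where TMM gave -0.02. Totals without the 100 highest genes, likewise without TMM factors, gave -0.03. What the muscle genes and the TMM factors each added to the shift was not tested. With totals without the muscle genes, the log2 fold changes of the blastemas over the juvenile limbs were 3.64 for TNC, 2.27 for FN1 (adjusted p = 0.00715 by edgeR) and 1.08 for THBS2 (adjusted p = 0.135 by edgeR). Together TNC, FN1 and THBS2 took 0.237%, 0.337%, 0.101%, 0.339% and 0.0981% of all counts in blastema replicates 2, 3, 5, 6 and 8. They took 0.0216% and 0.0222% in the aged limbs and 0.0234% to 0.0412% in the juvenile limbs. The share thus fell into a high and a low range among the blastemas themselves.

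Blastema replicates 5 and 8 were the lowest of the 5 for each of the 3 genes. The highest blastema exceeded the lowest 3.21-fold for TNC, 5.84-fold for FN1 and 8.07-fold for THBS2. On the log2 scale the SD among blastemas was 0.71 for TNC, 1.15 for FN1 and 1.22 for THBS2. Over 16073 genes with a mean log2 CPM above 1 the median SD was 0.45. Of these genes 76.5% had a smaller SD than TNC, 93.9% a smaller one than FN1 and 94.97% a smaller one than THBS2. The juvenile limbs differed less, with an SD of 0.39 for TNC, 0.31 for FN1 and 0.22 for THBS2 against a median of 0.39 over the same genes. The keratinocyte sums of blastema replicates 2, 3, 5, 6 and 8 were 2454, 2570, 5021, 4760 and 5443 CPM. In the same order the endothelium and glia sums were 45.9, 63.9, 158, 104 and 248 CPM. The skeletal muscle sums were 201, 227, 268, 180 and 237 CPM, and the immune cell sums 528, 347, 271, 284 and 420 CPM. Blastema replicate 2, with the highest THBS2, also had the highest sum of the 6 cartilage and bone genes, at 572 CPM against 71.6 to 154 CPM in the other blastemas, with BGLAP and IFITM5.1 at 0 in every blastema. Its sum of the blastema connective tissue genes was 791 CPM, against 73.5 to 198 CPM in the others. The part of these differences in the levels of the 3 genes was not tested.

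The same animals gave both samples according to the study. Each blastema was set against the limb with its replicate number. Equal numbers were taken to mean one animal, which the study does not state. TNC was 14.5-, 16.4-, 13.4-, 27.0- and 11.0-fold higher in the blastemas of animals 2, 3, 5, 6 and 8. For FN1 the folds were 6.26, 10.2, 1.60, 14.02 and 2.73, also higher in 5 of 5 animals. THBS2 showed folds of 6.80, 2.92, 0.727, 3.01 and 1.19 and was higher in 4 of 5 animals. Animal 5 was the one in which THBS2 was lower in the blastema, and it had the smallest fold of FN1 as well. An edgeR fit with the animal as a block left TNC and FN1 called and THBS2 not called.

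**Figure D2:**
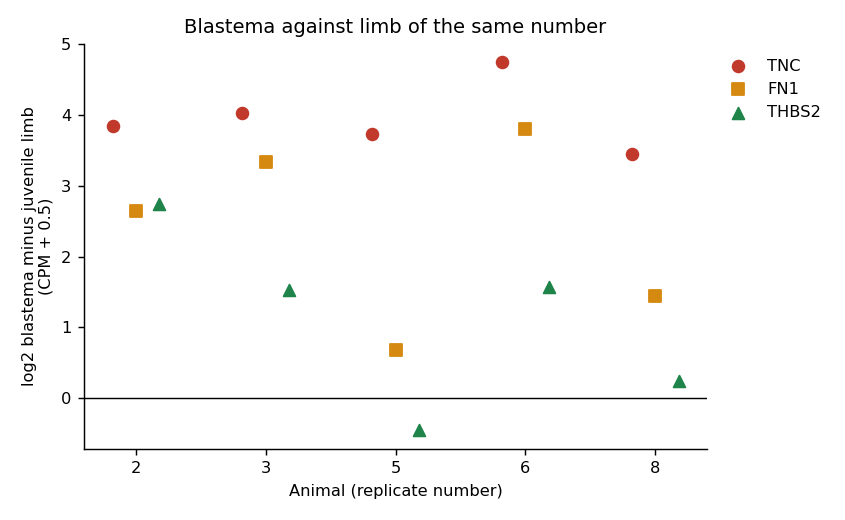
Difference of log2(CPM + 0.5) between the blastema and the juvenile limb with the same replicate number for TNC, FN1 and THBS2. Equal numbers were taken as 1 animal, with 1 point per gene and animal. All points of TNC and FN1 lie above 0, and for THBS2 4 of 5 do.

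In the aged limbs TNC and THBS2 were at the low end of all libraries. TNC stood at 29.7 and 43.3 CPM in aged limb replicates 1 and 2, below each of the 5 juvenile limbs, whose lowest level was 63.0 CPM. Aged over juvenile, its log2 value in edgeR's fit was -1.23 (standard error 0.36, adjusted p = 0.444), so TNC was not called. THBS2 stood at 19.7 and 24.2 CPM in the aged limbs, against 36.4 to 52.6 CPM in the juvenile limbs. Here the log2 value was -0.93 (standard error 0.26, edgeR's adjusted p = 0.426), also not called. FN1 gave 120 and 173 CPM in the aged limbs and 125 to 188 CPM in the juvenile limbs, so that the groups overlapped. Its log2 value was -0.02 (standard error 0.31, edgeR's adjusted p = 0.994).

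Between aged and juvenile limbs 24316 genes were tested and 0.103% were called, 13 higher (0.0535%) and 12 lower (0.0494%). Aged limbs below all juvenile limbs, as for TNC and THBS2, were seen in 6.34% of all genes tested. Over the alternatives the adjusted p of TNC ranged from 0.105 to 0.824 and that of THBS2 from 0.256 to 0.927. With 2 aged animals, age and other differences between the animals cannot be told apart.

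Set directly against the aged limbs, the blastemas had higher TNC, by 5.35 on the log2 scale (standard error 0.68, edgeR's adjusted p = 0.00666). This call was lost without aged limb replicate 1, where the adjusted p was 0.104. The mean of FN1 was 970 ± 623 CPM in blastemas (SD, n = 5) and 147 ± 37.7 CPM in aged limbs (SD, n = 2). It was not called, at a log2 difference of 2.77 (standard error 0.79, edgeR's adjusted p = 0.154). The mean of THBS2 was 124 ± 110 CPM in blastemas (SD, n = 5) and 21.95 ± 3.20 CPM in aged limbs (SD, n = 2). It was not called either, at 2.54 (standard error 0.84, edgeR's adjusted p = 0.215). DESeq2 on the same libraries called both, at 2.73 for FN1 (adjusted p = 0.000791) and 2.51 for THBS2 (adjusted p = 0.00886). In all 3 genes every blastema lay above both aged limbs, which held for 8.8% of the 22076 genes tested, while 1.59% were called, 97 higher (0.439%) and 254 lower (1.15%). With plain totals without the muscle genes, and so without TMM factors, 83 were higher and 511 lower, and the median of all genes was -0.37. The comparisons share groups, so they are not independent of each other.

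**Figure D3:**
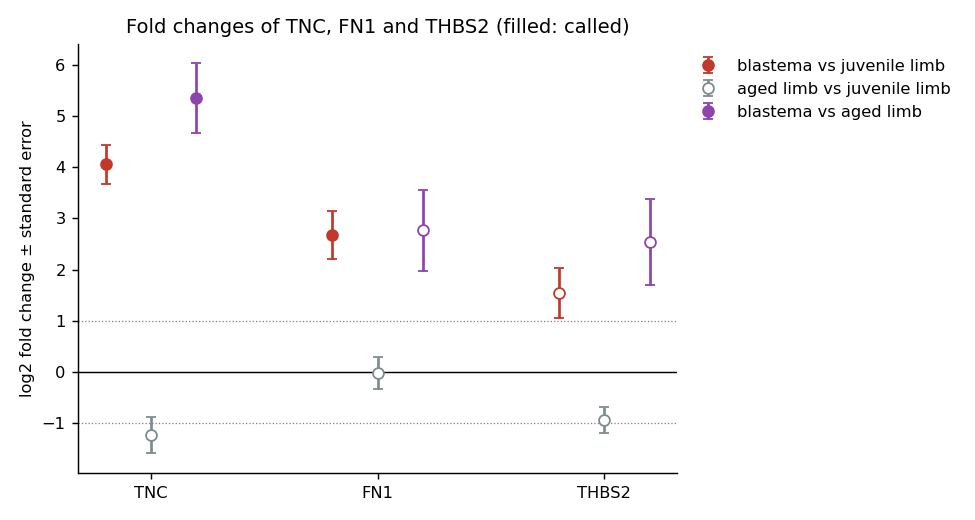
Log2 fold change with its standard error for TNC, FN1 and THBS2 in the 3 comparisons by edgeR. Filled points were called, open points were not, and dotted lines mark a log2 fold change of 1 and -1. TNC was called against both kinds of limb and FN1 against juvenile limbs only, and no gene was called between aged and juvenile limbs.

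The order of levels was thus blastema, juvenile limb and aged limb for TNC and THBS2. For TNC the blastemas were called above both kinds of limb, while the 2 kinds of limb were not told apart by the test. Only 2 aged limbs entered the call against them, so it says little about the spread among aged animals. For FN1 the blastemas stood first and aged and juvenile limbs overlapped. For THBS2 no neighbours in the order passed the test.

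Ratios of counts within a library do not depend on scaling, and they were compared between groups by a two-sided exact permutation test on their log2 values, with 9 such tests in all. Counts are not corrected for length, so a ratio is read only against the same ratio in another library. The TNC/FN1 ratio was 1.37, 1.43, 2.99, 1.27 and 1.92 in blastema replicates 2, 3, 5, 6 and 8, against 0.591, 0.889, 0.358, 0.659 and 0.477 in the juvenile limbs of the same numbers. It was higher in every blastema than in any juvenile limb, 3.00-fold on average (p = 0.00794, exact permutation test, adjusted p = 0.0357 over the 9 tests). In the blastemas with the least FN1, replicates 5 and 8, the ratio was highest, but a low FN1 raises this ratio by itself. The TNC/THBS2 ratio was 5.22, 15.1, 23.4, 20.2 and 15.7 in the blastemas, against 2.45, 2.69, 1.27, 2.25 and 1.69 in the juvenile limbs. This was a 7.12-fold difference without overlap (p = 0.00794, exact permutation test, adjusted p = 0.0357), and 0.00794 is the smallest p that 5 libraries against 5 allow. The FN1/THBS2 ratio was 3.81, 10.5, 7.83, 15.9 and 8.17 in the blastemas, against 4.14, 3.03, 3.55, 3.42 and 3.54 in the juvenile limbs. It was 2.38-fold higher (p = 0.0159, exact permutation test, adjusted p = 0.0476), with blastema replicate 2 inside the range of the juvenile limbs. When libraries were swapped only within animals, p was 0.0625, 0.0625 and 0.125 for the TNC/FN1, TNC/THBS2 and FN1/THBS2 ratios, where 0.0625 is the smallest value that 5 pairs allow. By these ratios the difference between blastemas and juvenile limbs was largest for TNC and smallest for THBS2.

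In the aged limbs the TNC/FN1 ratio was 0.247 and 0.250, below all juvenile limbs. The ratio was 0.437 times that of the juvenile limbs (p = 0.0952, exact permutation test, adjusted p = 0.122), and 2 libraries against 5 cannot give a p below 0.0952. The FN1/THBS2 ratio was 6.099 and 7.16 in the aged limbs, above every juvenile limb and 1.88-fold higher (p = 0.0952, exact permutation test, adjusted p = 0.122). For TNC/THBS2 the aged limbs gave 1.51 and 1.79, within the range of the juvenile limbs (p = 0.476, exact permutation test, adjusted p = 0.536). Against the aged limbs, the blastemas had a TNC/FN1 ratio 6.85-fold higher and a TNC/THBS2 ratio 8.67-fold higher, each with p = 0.0952 by the exact permutation test (adjusted p = 0.122). FN1/THBS2 in the blastemas was 1.27 times that of the aged limbs (p = 0.571, exact permutation test, adjusted p = 0.571).

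**Figure D4:**
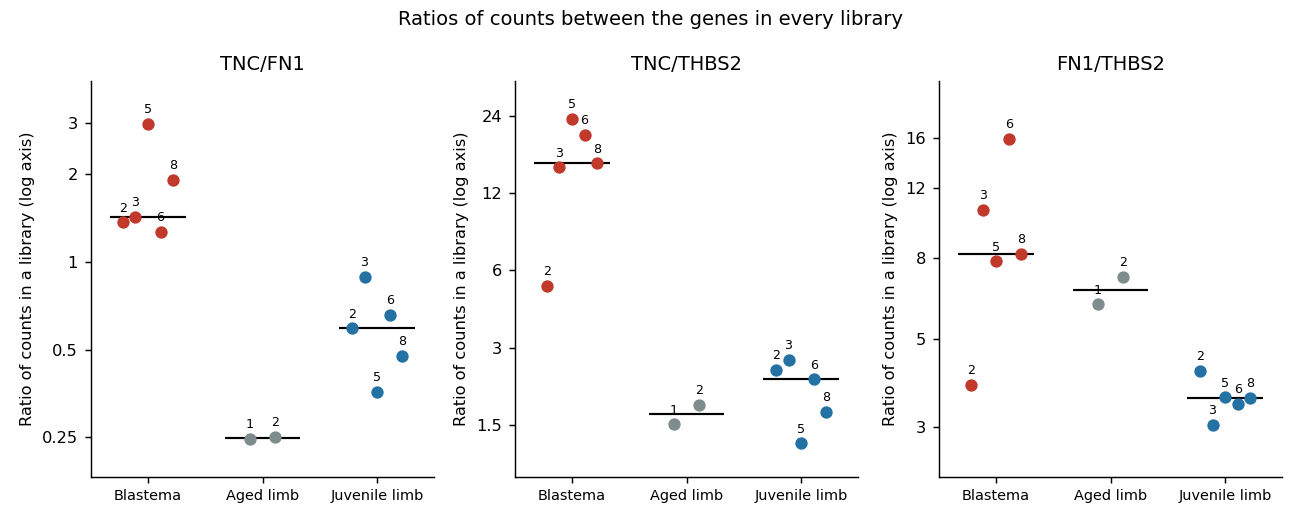
Ratio of the counts of TNC to FN1, TNC to THBS2 and FN1 to THBS2 in each of 12 libraries (log axis, different in each panel), with replicate numbers and the median of each group as a line. The aged limbs have the lowest TNC/FN1 ratios, 0.247 and 0.250, and blastema replicate 2 is the only blastema inside the range of the juvenile limbs for FN1/THBS2.

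The genes most like each of the 3 were taken as those whose log2(CPM + 0.5), centred on its own mean, had the smallest root mean square difference over the 12 libraries, among 16072 other genes. This is a description over libraries that share their groups. The closest to TNC was CHRM4, a muscarinic acetylcholine receptor, with a difference of 0.54 and a mean of 81.2 CPM in blastemas, 2.33 CPM in aged limbs and 4.68 CPM in juvenile limbs. MMP11, the matrix metalloproteinase stromelysin 3, followed at 0.57 with 45.9 CPM in the blastemas, 0.470 CPM in the aged limbs and 1.17 CPM in the juvenile limbs. The next were AMEX60DD044091 at 0.62, the laminin chain gene LAMA1 at 0.64 and AMEX60DD044102 at 0.68.

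FN1 and THBS2 had a neighbour in common, COL12A1, which encodes a collagen that associates with fibrils. It differed from FN1 by 0.57 and from THBS2 by 0.28, the smallest difference found for THBS2, and averaged 298 CPM in the blastemas, 60.6 CPM in the aged limbs and 105 CPM in the juvenile limbs. The other neighbours of FN1 were AMEX60DD016339 at 0.57, the sulfotransferase gene CHST2 at 0.57, SRPX2 at 0.58 and AMEX60DD023359 at 0.58. Those of THBS2 were CALU at 0.36, UGGT2 at 0.40, FSTL1 at 0.40 and PLOD1 at 0.42, genes for a calcium-binding protein of the secretory pathway, a sensor of glycoprotein folding, a secreted glycoprotein and a lysyl hydroxylase of collagen. Among the 3 genes themselves, FN1 ranked 25 among the neighbours of TNC with a difference of 1.11. THBS2 ranked 48 among those of FN1 at 0.73 and 160 among those of TNC at 1.54. Seen from the other gene of each pair the ranks were lower. TNC ranked 798 among the neighbours of FN1 and 14027 of 16072 among those of THBS2, where FN1 ranked 258. The difference is not scaled for the size of a change. Genes that change in the same direction by unlike amounts can therefore rank far apart, and the ranks do not compare direction alone.

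The relatives of tenascin C and thrombospondin 2 followed here went both ways in the blastema. All 4 had been listed by the study as changed, so they are no survey of these families and no independent evidence of direction. THBS3 (AMEX60DD014849), which encodes another thrombospondin, had 55.5, 126.2, 66.5, 86.2 and 29.4 CPM in blastema replicates 2, 3, 5, 6 and 8, against 18.8, 18.4, 23.7, 28.01 and 28.5 CPM in the juvenile limbs. The lowest blastema barely exceeded the highest juvenile limb. THBS3 rose by 1.62 on the log2 scale (standard error 0.33, edgeR's adjusted p = 0.00971), and it stood at 23.7 and 19.5 CPM in the aged limbs, where it was not called against juvenile limbs. Unlike THBS2, it was not highest in blastema replicate 2.

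TNXB (AMEX60DD010491), for tenascin X, a protein of mature collagenous tissue, was nearly absent from the blastemas. It had 11 counts over the 5 blastemas, 9 of them in replicate 2. Its level was 58.3 and 66.4 CPM in the aged limbs and 33.1 to 138 CPM in the juvenile limbs. Against juvenile limbs it fell by 8.85 on the log2 scale (standard error 0.94, edgeR's adjusted p = 0.00012). TNXB.3 (AMEX60DDU001019278), annotated with the same name, had no count in the blastemas, 164 counts in the aged limbs and 349 in the juvenile limbs. Against a floor of 3 counts over the blastemas the blastemas had it at least 103-fold lower than the aged limbs and at least 94.2-fold lower than the juvenile limbs. The 2 TNXB rows may share reads, since the counting of reads with several matches is not stated.

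TNN (AMEX60DD018225), for tenascin N, did not pass the filter in the comparison of blastemas and juvenile limbs. It had 1, 108, 78, 131 and 52 counts in blastema replicates 2, 3, 5, 6 and 8, 0 in both aged limbs, and 6, 0, 2, 3 and 7 in the juvenile limbs of the same numbers. It was thus high in 4 blastemas and at the level of the limbs in blastema replicate 2, the opposite of THBS2 in that library. The log2 difference of CPM + 0.5 between blastemas and juvenile limbs was 2.51 (unadjusted p = 0.0397, two-sided exact permutation test, n = 5 each). With libraries swapped within animals the unadjusted p of this test was 0.125. Among the relatives the test was run for TNN alone. Against the floor in the aged limbs, TNN was at least 65.7-fold higher in the blastemas, although edgeR did not call it there (adjusted p = 0.0986).

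The other matrix genes were counted from lists of names that the study pairs with an identifier. All but 1 of them, EMID1, had been listed by the study as changed in these libraries, so their counts are no independent evidence of direction. Of 23 genes of glycoproteins, laminins and microfibrils, 20 were tested, 10 rose and 4 fell in the blastemas against the juvenile limbs, with a median log2 fold change of 1.78 against -0.02 over all genes. Over all 19961 genes tested, 1.86% were called higher and 5.6% lower. The highest was FREM1.1, a basement membrane gene of epithelia, at 5.03 (standard error 0.81, adjusted p = 0.00203 by edgeR). It was followed by LAMA1 at 3.90 and FBN2, for a microfibril protein typical of embryonic tissue, at 2.93, and HMCN2.1, for a hemicentin, at 2.71. CRTAC1 fell by 3.08 on the log2 scale, the laminin gene LAMB2 by 2.67, the microfibril gene MFAP5 by 2.61 and TINAGL1 by 1.18. Without blastema replicate 2 the counts were 9 higher and 4 lower of 21 tested. With DESeq2, 13 were higher and 9 lower, beside 682 higher and 2014 lower of all 63474 genes.

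Among the listed collagen genes more fell than rose, as among all genes called. Of 13 listed, 6 were tested, 2 rose and 4 fell, with a median log2 fold change of -2.37. Over all 19961 genes tested, 371 rose (1.86%) and 1117 fell (5.6%). The summed level of the 13 genes was 122 to 531 CPM in the blastemas and 130 to 221 CPM in the juvenile limbs, so the sums overlapped. COL5A3.3 rose by 2.02 (standard error 0.50, adjusted p = 0.0267 by edgeR) and COL12A1 by 1.497 (standard error 0.40, adjusted p = 0.0387). COL6A5, with 2 counts in all blastemas together and 299 in all juvenile limbs, was 121-fold lower in the blastemas (95% exact counting interval 33.2 to 1005). COL21A1, with 9 counts in all blastemas and 199 in all juvenile limbs, fell by 4.09 on the log2 scale. COL6A5 and COL21A1 passed the filter through the juvenile limbs alone. COL14A1.1 fell by 2.45 and COL22A1 by 2.29. Over all 13, DESeq2 called 3 higher and 10 lower, beside 682 higher and 2014 lower of all 63474 genes.

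Proteoglycans and enzymes that modify the matrix rose in most cases. Of 15 listed, 14 were tested, 9 rose and 1 fell, with a median log2 fold change of 1.85, beside 1.86% of all genes tested called higher and 5.6% lower. LUM.1 and KERA, for the keratan sulfate proteoglycans lumican and keratocan, rose by 4.58 (standard error 0.90, adjusted p = 0.00745 by edgeR) and 3.02. SULF1, a sulfatase of heparan sulfate, rose by 2.24 and the glypican gene GPC6.2 by 1.97. HTRA1, for a secreted serine protease, fell by 3.54 on the log2 scale. The log2 fold change of FN1, 2.68, was above the median of this list and of the glycoproteins, and that of THBS2, 1.55, was below both. Only FREM1.1 and LUM.1 of the genes tested in these lists had a higher log2 fold change than TNC. Both passed the filter through the blastemas, and over all juvenile limbs they had 7 and 19 counts, against 7927 for TNC. Their place above TNC thus rests on juvenile counts near 0 and is not read as a ranking.

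**Figure D5:**
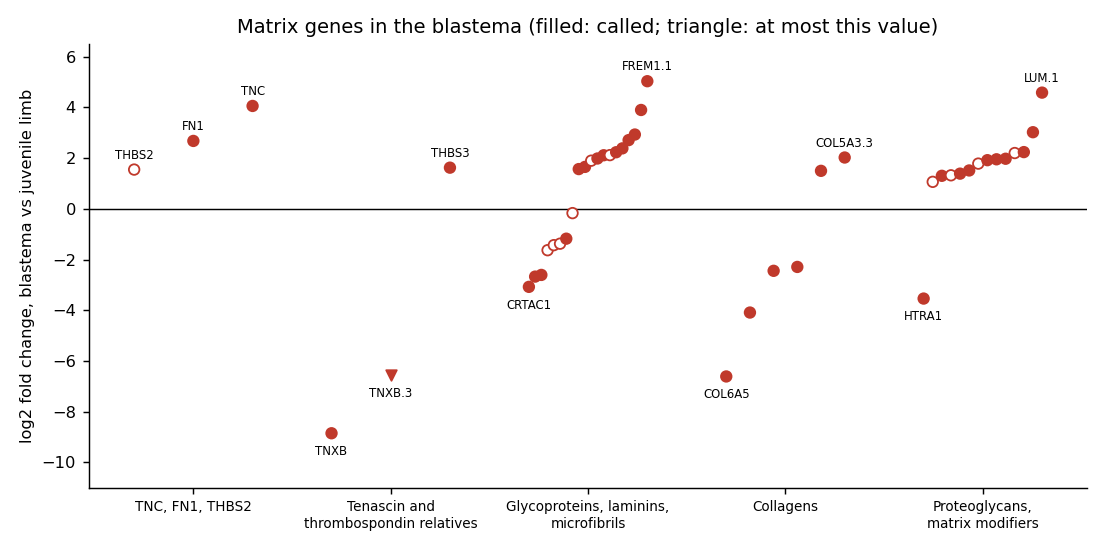
Log2 fold change in blastemas against juvenile limbs by edgeR for TNC, FN1 and THBS2, their relatives and 3 lists of matrix genes, each point a gene that passed the filter. Filled points were called, and the triangle marks TNXB.3, which had no count in the blastemas and is drawn at its limit of 94.2-fold lower. The collagens and relatives reach far below 0, whereas 13 of 14 proteoglycans and modifiers lie above it.

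None of these matrix genes, nor any relative, was called between aged and juvenile limbs by edgeR. Only 0.103% of all 24316 genes tested were called there, so a lack of calls in short lists says little about matrix genes. DESeq2 called 4 of the glycoproteins and 1 collagen lower, beside 235 lower and 68 higher of all 62161 genes. At an unadjusted p under 0.05 in edgeR, 7 of 21 glycoproteins were lower and 1 higher, 5 of 11 collagens and 3 of 14 proteoglycans and modifiers were lower, and 0 of 3 relatives were on that side of 0.05, as were 1818 of all 24316 genes tested in either direction. The median log2 fold changes were -0.78, -1.25 and -0.46 for these 3 lists, against -0.04 over all genes. In the blastemas against the aged limbs, 6 of 21 glycoproteins, 1 of 7 collagens and 4 of 14 proteoglycans and modifiers rose and 0 fell, while TNXB and TNXB.3 were the 2 of 4 relatives that fell. Over all 22076 genes tested, 0.439% were called higher and 1.15% lower. At an unadjusted p under 0.05 in edgeR, 10, 3 and 13 genes of the 3 lists were higher and 4, 2 and 1 lower, beside 3103 of all 22076 genes tested in either direction. DESeq2 called 9, 3 and 11 genes of the 3 lists higher and 2, 1 and 1 lower, beside 525 higher and 561 lower of all 50623 genes. Leaving out blastema replicate 2 gave 8, 2 and 5 higher. Without aged limb replicate 1, none of the 3 lists had a call and 1 relative fell. Without aged limb replicate 2, 2 glycoproteins rose, none of the other matrix genes did, and 1 relative fell.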

How the data were processed

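The deposited counts per gene were used as the authors made them. They depleted ribosomal RNA, built stranded paired-end libraries, trimmed reads with Trimmomatic 0.39, aligned them by STAR 2.7.9a against the genome AmexG_v6.0-DD and obtained counts per AmexT_v47 gene from featureCounts, without normalization. How strand, overlapping genes or multiply matching reads were handled is not given in the sources used here. Per-library and joint tables were equal, with 0 differing values.

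Groups came from the labels. Each comparison was fitted on its own libraries with edgeR 4.0.16 in R 4.3.3 (TMM, filterByExpr, quasi-likelihood F test, Benjamini-Hochberg over all genes tested), and the standard error is the absolute log2 fold change divided by the square root of F. The study used DESeq2, here an alternative in version 1.42.0. Plotted and printed levels use TMM over all 12 libraries. A floor of 3 counts per group stood in where a group had none, and intervals and floors cover counting error only. The fit was tested on simulated data.

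Other alternatives were DESeq2's size factors, totals without the 100 highest genes or without the muscle list, no filter or a minimum mean of 10 counts, a joint edgeR fit to all 12 libraries, the animal as a block, and leaving out each library. Both kinds of totals were used in place of TMM factors. A blastema and a juvenile limb with one number were taken to be from one animal, which the study does not state. Their deviations from the group means correlated by a median of 0.148 (0.0159 to 0.202, 5 pairs) against -0.0150 for 20 pairs with other numbers.

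The genes and lists were chosen with earlier results of these data known. Named were TNC, FN1 and THBS2, the relatives TNN, TNXB, TNXB.3 and THBS3, the 5 most similar genes with a mean log2 CPM above 1, and the 4 highest and 4 lowest called genes of each other matrix list. EMID1 was named after its values were seen. Names come from the study's tables, which paired 1585 identifiers with a name. Gene coordinates and sequences were not used here.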

Additional observations from a re-analysis of the deposited data

Results flagged for a closer look

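Groups of 5 libraries were searched for a highest or lowest library far from the rest, with 82 groups examined and 4 found, where chance marks about 1 in 20. All 4 are blastema groups. The highest TNXB level, 0.880 CPM in replicate 2, stood above the next at 0.151 CPM. COL6A5 reached 0.195 CPM in 1 blastema and 0 in the others, which rests on 2 counts. The summed level of the cartilage and bone genes was 572 CPM in replicate 2, with the next at 154 CPM. The blastema connective tissue genes summed to 791 CPM in replicate 2, with the next at 198 CPM.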

How the results depend on the processing

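The direction of TNC, and of THBS2, was the same under every alternative run in each of the 3 comparisons. FN1 kept its direction in both comparisons with the blastemas, but between aged and juvenile limbs it had a log2 fold change of 0.00415 without a filter on low counts, 0.22 without aged limb replicate 1, 0.08 without juvenile limb replicate 2 and 0.06 without juvenile limb replicate 5, against -0.02. The numbers of genes called moved most. For blastema against juvenile limb, 1488 genes became 2492 with totals without the muscle list, 3260 without a filter, 2696 with DESeq2, 2582 with DESeq2 on all 12 libraries and 3000 with DESeq2 and the animal as a block. For aged against juvenile limb, 25 became 897 without a filter, 303 with DESeq2 and 174 with DESeq2 on all 12 libraries. For blastema against aged limb, 351 became 594 with totals without the muscle list, 1867 without a filter, 1008 with edgeR on all 12 libraries, 1086 with DESeq2 and 1721 with DESeq2 on all 12 libraries. THBS2 was called against juvenile limbs at 1.58 without a filter, 1.55 with DESeq2, 1.56 with DESeq2 on all 12 libraries and 1.14 with DESeq2 and the block. Against aged limbs FN1 was called at 2.74 without a filter, 2.72 with edgeR on all 12 libraries, and 2.73 with DESeq2 on either set of libraries, and THBS2 at 2.51 without a filter and 2.51 with DESeq2 on either set. The cause was not tested.

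With libraries left out in turn, blastema against juvenile limb gave 1099 to 1800 genes called, a TNC log2 fold change of 3.85 to 4.24, FN1 of 2.36 to 2.91 and THBS2 of 0.91 to 1.78. Aged against juvenile limb gave 0 genes without aged limb replicate 1 and at most 9 without replicate 2, with TNC from -1.50 to -0.98, FN1 from -0.28 to 0.22 and THBS2 from -1.06 to -0.79. Blastema against aged limb gave 73 genes without aged limb replicate 1, 549 without blastema replicate 2, and 198, 210 and 163 without blastema replicates 3, 5 and 6, with TNC from 5.07 to 5.62, FN1 from 2.43 to 3.03 and THBS2 from 1.87 to 2.77. Where 1 aged limb was left, it was assumed to vary like the other libraries.

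With the animal as a block, edgeR called 1394 genes and gave log2 fold changes of 3.96 for TNC, 2.3996 for FN1 (adjusted p = 0.0238) and 1.14 for THBS2 (adjusted p = 0.175), with no change of call. The log2 ratios were 1.58 for TNC/FN1 (p = 0.0625, exact permutation test), 2.83 for TNC/THBS2 (p = 0.0625) and 1.25 for FN1/THBS2 (p = 0.125) when libraries were swapped within animals in this pairing. No paired analysis was possible because no aged animal gave a blastema or a juvenile limb, which applies to both comparisons with aged limbs.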
